A study of Mus musculus with 4 samples.

Results

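The collagen genes are the 40 genes of the deposited table, of 22422 in all, whose mouse symbol is Col, a number, the letter a and a number. They comprised 10 fibrillar, 6 basement membrane, 1 anchoring, 2 network and 7 FACIT genes (fibril-associated collagens with interrupted triple helices). The others were 6 beaded filament, 4 transmembrane and 2 multiplexin genes and 2 more that belong to none of these. Col2a1, Col9a1, Col10a1 and Col19a1, 4 further genes with such symbols in the annotation, were not analysed here. The RNA came from distal colon of female mice aged 6 weeks, which had received 2% DSS (dextran sulfate sodium, a polysaccharide that injures colonic epithelium) for 5 days. All 4 libraries were from DSS-treated mice, 2 from Elf4fl/fl-Villin-Cre mice and 2 from wild-type mice. In Elf4fl/fl-Villin-Cre mice, Cre recombinase made under the villin promoter of intestinal epithelium deletes loxP-flanked Elf4. Villin is a gene of epithelium, so the promoter does not target the stromal cells that make most collagen. The design text gives C57BL/6 for both genotypes, but for Elf4fl/fl-Villin-Cre mice the label on strain has C57BL/8. The labels name neither the animals behind the replicates nor the alleles of wild-type mice, so p-values measure only how these samples vary, which may be technical.

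Collagens are proteins of 3 chains wound into a triple helix, a shape that needs glycine at regular steps along each chain. Fibrillar collagens give gut its tensile strength, type IV collagen forms the sheet of the basement membrane under epithelium and around vessels, and type VII forms the fibrils that anchor such a sheet to the tissue beneath. In colon most collagen RNA is made by fibroblasts, smooth muscle and the cells of vessel walls.

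The table holds normalised reads: each library's read counts were scaled by a single factor and not by gene length. Recovered whole reads came to 16023926 and 16425954 in Elf4fl/fl-Villin-Cre libraries and 16134509 and 15885028 in wild-type libraries. Elf4 had 897 and 758 normalised reads in Elf4fl/fl-Villin-Cre colon, against 1588 and 1938 in wild type. That is a fall by 1.09 ± 0.16 (SE) on the log2 scale (limma adjusted p = 0.0139). Dividing group means by those of wild type gave 0.47 for Elf4 and 0.33 for the summed level of 12 epithelial markers. The part of lower epithelial RNA in the Elf4 fall was not tested. Keratins and other genes of stratified squamous epithelium, which lines the anal canal and not the colon, set 1 library apart. The 11 such genes summed to 148 and 992 normalised reads in Elf4fl/fl-Villin-Cre libraries and to 233 and 6614 in wild type, with the high value in wild type replicate 2.

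Collagen RNA was more abundant in Elf4fl/fl-Villin-Cre colon. The 40 genes took 0.880% and 0.814% of all reads in Elf4fl/fl-Villin-Cre libraries and 0.461% and 0.360% in wild-type libraries. In normalised reads they summed to 114849 and 111839 against 76527 and 60269 in wild type, a 1.66-fold difference of means. Scaling to library totals moved the median log2 fold change of all genes up by 0.31, so the shares show a larger difference than the normalised sums. Each gene was tested in a fit over all 22050 genes with a mean of at least 1 normalised read (limma on log2(value + 1), called at a Benjamini-Hochberg adjusted p under 0.05). All 40 collagen genes passed that filter, with the lowest mean at 3.5 recovered reads. Of the 40, 13 rose and 0 fell, where 6.86% of all tested genes rose and 8.6% fell. At an unadjusted p under 0.05 there were 18 of the 40 (45%), against 32.1% of all tested genes. The 13 were Col4a1, Col4a2, Col5a1, Col5a2, Col5a3, Col6a4, Col7a1, Col8a1, Col11a2, Col12a1, Col15a1, Col18a1 and Col27a1. The median log2 fold change was 0.54 over the 40 and 0.11 over all tested genes. Both Elf4fl/fl-Villin-Cre libraries lay above both wild-type libraries in 25 of the 40, against 35% of all tested genes, and below them in 3, against 27.2%. Those 3, named after their values were seen, were Col4a6, Col6a6 and Col9a2.

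**Figure D1:**
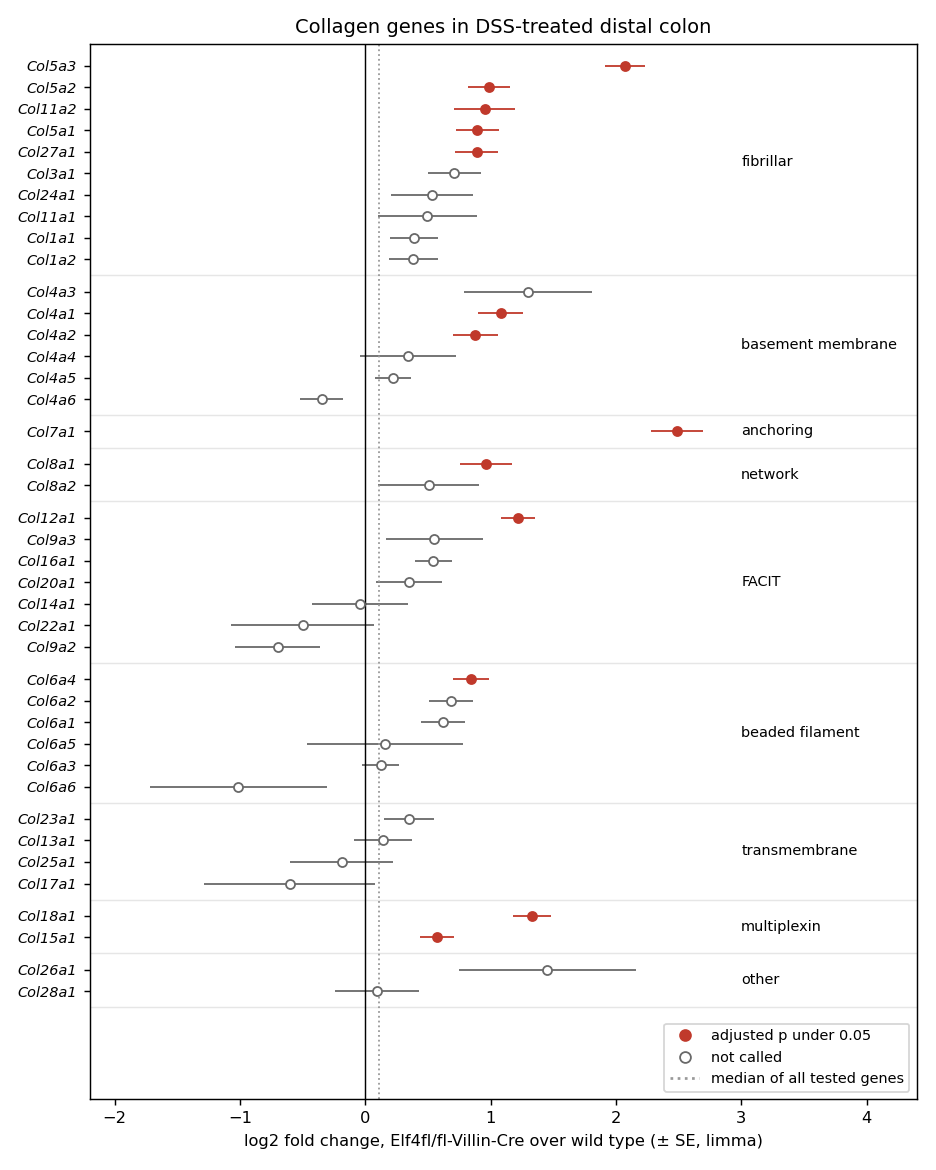
Log2 fold change of each collagen gene (x axis, Elf4fl/fl-Villin-Cre over wild type, limma, bars are SE), grouped by class. Filled points are the 13 genes that passed the test, all to the right of 0, from 0.57 for Col15a1 to 2.49 for Col7a1, and the dotted line is the median of all tested genes at 0.11.

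The same 13 genes rose and 0 fell in edgeR's quasi-likelihood test on the recovered reads, which tested 39 of the 40. There 9.88% of 17337 genes rose and 13.5% fell, and 18 of the 39 (46.2%) had an unadjusted p under 0.05, against 38.9% of all genes. DESeq2 on the same reads called 16 collagens higher and 0 lower, where 9.51% of 16750 genes with an adjusted p rose and 15.4% fell. It called Col3a1, Col6a1, Col6a2 and Col16a1 besides 12 of the 13, and not Col11a2 (adjusted p = 0.0717). Col5a3, Col7a1, Col12a1 and Col18a1 passed edgeR in each of the 4 fits that left out 1 library. Without wild type replicate 2 those 4 were the only members called, where 2.6% of all genes rose, and the 9 others stood at adjusted p = 0.0631 to 0.153. Without Elf4fl/fl-Villin-Cre replicate 1 edgeR called 6 members, where 4.7% of all genes rose. Limma without any 1 library called 0 genes of any kind (3778 to 6271 at an unadjusted p under 0.05), and limma without its variance trend also called 0 (6088 at an unadjusted p under 0.05, 17 of them collagens). With reads scaled to library totals, which moved the median of all genes by 0.31 on the log2 scale, 20 collagens rose and 0 fell, where 18.2% and 5.25% of all genes did. In that scaling 4030 genes rose and 1162 fell over the table, against 1512 and 1897 with the authors' scaling.

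Cell markers moved in the same libraries, and in bulk tissue more cells of a type and more RNA per cell cannot be told apart. The marker counts stand beside 6.86% of all tested genes that rose and 8.6% that fell. All 12 epithelial markers fell, and their summed level was 84402 and 101579 normalised reads in Elf4fl/fl-Villin-Cre colon against 255436 and 315828 in wild type. Of 18 fibroblast markers 6 rose and 0 fell, with sums of 52708 and 57970 against 37995 and 33846. Of 12 endothelial markers 3 rose (7636 and 6743 against 5352 and 4120), and of 8 pericyte markers 4 rose (19310 and 18244 against 9827 and 7612). Of 12 smooth muscle markers 0 rose and 1, Des, fell, with sums of 79261 and 114251 against 156809 and 122025. Of 8 enteric glia markers 2 rose and 1 fell, with a median log2 fold change of 0.45. Their sum was lower (2334 and 2987 against 4633 and 5973), and most of it was Erbb3, which epithelium also makes (1231 and 1849 against 4027 and 5396). Collagen reads per fibroblast marker read were 2.18 and 1.93 in Elf4fl/fl-Villin-Cre libraries and 2.01 and 1.78 in wild type, so the groups overlapped in that ratio. Collagen reads per smooth muscle marker read were 1.45 and 0.979 in Elf4fl/fl-Villin-Cre libraries against 0.488 and 0.494 in wild type, with no overlap. Per endothelial marker read they were 15.04 and 16.59 against 14.30 and 14.63, nearer to each other but also without overlap. No such ratio was taken for pericyte markers, whose summed level differed 2.15-fold between group means, against 1.66-fold for the collagens. Collagen reads per epithelial marker read were 1.36 and 1.10 against 0.300 and 0.191, with no overlap. The part of cell numbers in the collagen changes was not tested.

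Among the fibrillar collagens 5 less abundant chains rose and the 3 most abundant did not pass limma or edgeR. Col3a1, the type III chain of extensible tissues, was the most abundant collagen per length in these libraries. It had 31771 and 31428 normalised reads in Elf4fl/fl-Villin-Cre colon, against 21947 and 16978 in wild type. Its groups did not overlap, and its log2 fold change of 0.71 ± 0.21 had a limma adjusted p of 0.0759. DESeq2 called it (adjusted p = 0.00488), as did limma with a replicate block (0.0312), quantile scaling (0.0472) or library totals (0.0218). With library totals limma also called Col1a1 and Col1a2 (adjusted p = 0.0433 and 0.0435). Col1a1 and Col1a2, the chains of type I collagen, moved less. Col1a1 had 5359 and 6009 normalised reads in Elf4fl/fl-Villin-Cre colon, against 5070 and 3693 in wild type (log2 fold change 0.39 ± 0.19, limma adjusted p = 0.22). Col1a2 had 7588 and 9689, against 7383 and 5853 (0.38 ± 0.20, limma adjusted p = 0.241). Both type I chains were above wild type in each Elf4fl/fl-Villin-Cre library, by little in replicate 1. Type I collagen is built of a pair of Col1a1 chains and a single Col1a2 chain. Reads per kilobase of Col1a1 per Col1a2 stood at 1.34 and 1.17 in Elf4fl/fl-Villin-Cre libraries and at 1.30 and 1.19 in wild-type libraries, so that balance overlapped between groups.

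Type V collagen, which lies inside type I fibrils and sets their diameter, rose in all 3 of its chains. Col5a3 had the largest change of the fibrillar genes, with 1903 and 1792 normalised reads in Elf4fl/fl-Villin-Cre colon, against 495 and 389 in wild type. Its means of 1848 ± 78.8 and 442 ± 75.0 (SD, n = 2 each) differed 4.18-fold (log2 fold change 2.07 ± 0.16, limma adjusted p = 0.00671). Col5a1 had 4552 and 4143 normalised reads against 2681 and 2035 in wild type, and rose by 0.89 (limma adjusted p = 0.0241). Col5a2 had 4864 and 4567 against 2715 and 2087 in wild type, and rose by 0.99 (limma adjusted p = 0.0181). When Elf4fl/fl-Villin-Cre replicate 1 was left out, edgeR no longer called Col5a1 (adjusted p = 0.055). Leaving out wild type replicate 2 ended the calls of Col5a1 (edgeR adjusted p = 0.0908) and Col5a2 (0.0695). The 3 chains did not move in step. Per Col5a1 read there were 0.418 and 0.432 Col5a3 reads in Elf4fl/fl-Villin-Cre libraries, against 0.185 and 0.191 in wild type, while Col5a2 stood at 1.07 and 1.10 against 1.01 and 1.03. Such ratios within a library do not depend on scaling. With 2 libraries a group an exact permutation test cannot go below p = 0.333, so they are given without a test.

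Of the minor fibrillar genes, Col27a1, of cartilage and some epithelia, had 1042 and 811 normalised reads in Elf4fl/fl-Villin-Cre colon against 530 and 464 in wild type. It rose by 0.89 ± 0.17 (limma adjusted p = 0.0238). Col11a2, a type XI chain best known from cartilage, had 91.2 and 109 against 52.5 and 49.5 and rose by 0.95 ± 0.24, just past the threshold (limma adjusted p = 0.0491). Leaving out Elf4fl/fl-Villin-Cre replicate 1 or wild type replicate 2 put Col27a1 at edgeR adjusted p = 0.0638 or 0.092. Col11a2 missed the threshold whichever library was left out of edgeR (highest adjusted p = 0.156). Of the 7 cartilage genes listed, 4 had a row, and they summed to 133 and 272 normalised reads in Elf4fl/fl-Villin-Cre colon and 496 and 410 in wild type, most of it Sox9, which epithelium also makes. The other 2 fibrillar genes, Col11a1 and Col24a1, had at most 37.5 and 103 normalised reads in any library and were not called (limma adjusted p = 0.436 and 0.315).

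**Figure D2:**
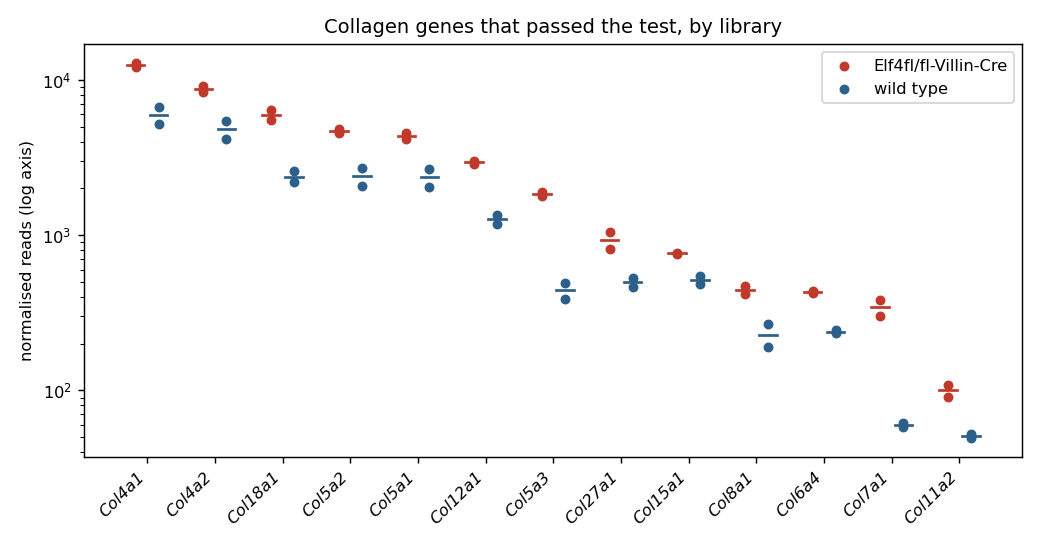
Normalised reads (y axis, log scale) of the 13 collagen genes that passed the test, with 2 Elf4fl/fl-Villin-Cre libraries left of 2 wild-type libraries for each gene and bars at the means. The groups overlap for none of the 13, and the distance is widest for Col5a3 and Col7a1.

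Anchoring fibril collagen had the largest change of all 40 genes. Col7a1 (ENSMUSG00000025650.12, mm10 chromosome 9, 108953586 to 108984875, plus strand) encodes the whole of type VII collagen, which ties the basement membrane to the stroma in skin and other lining tissues. It had 382 and 303 normalised reads in Elf4fl/fl-Villin-Cre colon, against 61.7 and 58.0 in wild type. The means of 342 ± 56.1 and 59.8 ± 2.67 (SD, n = 2 each) differed 5.72-fold (log2 fold change 2.49 ± 0.21, limma adjusted p = 0.00737). Both Elf4fl/fl-Villin-Cre libraries were well above both wild-type libraries, though 60 and 55 reads stood behind the wild-type values. Col17a1, the transmembrane collagen of hemidesmosomes in stratified epithelium, followed another order. It had 22.0 and 50.2 normalised reads in Elf4fl/fl-Villin-Cre colon and 26.7 and 96.9 in wild type (log2 fold change -0.60 ± 0.68, limma adjusted p = 0.585), and the sign turned to 0.31 without wild type replicate 2. The squamous keratin Krt14 stood highest in the same libraries, at 69.2 and 340 in Elf4fl/fl-Villin-Cre colon and 64.8 and 2524 in wild type. Col7a1 was nearly the same in both wild-type libraries (61.7 and 58.0), while the squamous genes were highest in replicate 2. The part of squamous tissue in the Col7a1 values was not tested.

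The stretches of DNA just before the starts of Col7a1, Col5a3 and Col3a1 are shown because the first 2 had the largest changes among called genes and Col3a1 is the most abundant collagen. Each is the 250 bases before the RefSeq start in GRCm38.p6, and none overlaps an annotated exon. Capitals mark, on either strand, the letters of the CCAAT box, the GC box (GGGCGG) and the TATA box (TATAAA), wherever they lay in the window. CCAAT begins 249 bases before the start in Col7a1 and 122 in Col5a3. GGGCGG begins 61 bases before it in Col7a1 and 63 and 41 in Col5a3, and TATAAA 117 in Col3a1. Whether any of them works as a promoter box was not tested. The AP-1 letters TGANTCA and the ETS letters CCGGAA were searched too and were not in these 3 windows. Shorter or other forms of the ETS motif were not searched, so their absence is not shown.
Col7a1, chr9:108953336-108953585, plus strand: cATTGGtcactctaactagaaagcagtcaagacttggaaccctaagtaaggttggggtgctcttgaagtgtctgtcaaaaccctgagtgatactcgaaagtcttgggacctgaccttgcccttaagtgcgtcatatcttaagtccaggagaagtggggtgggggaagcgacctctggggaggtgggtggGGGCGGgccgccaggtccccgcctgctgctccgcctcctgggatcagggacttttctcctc
Col5a3, chr9:20815068-20815317, minus strand: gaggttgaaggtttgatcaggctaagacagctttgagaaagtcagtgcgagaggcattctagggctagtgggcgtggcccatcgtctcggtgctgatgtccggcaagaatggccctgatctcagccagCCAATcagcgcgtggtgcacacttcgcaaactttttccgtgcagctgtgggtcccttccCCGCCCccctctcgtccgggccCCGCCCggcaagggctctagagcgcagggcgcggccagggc
Col3a1, chr1:45311288-45311537, plus strand: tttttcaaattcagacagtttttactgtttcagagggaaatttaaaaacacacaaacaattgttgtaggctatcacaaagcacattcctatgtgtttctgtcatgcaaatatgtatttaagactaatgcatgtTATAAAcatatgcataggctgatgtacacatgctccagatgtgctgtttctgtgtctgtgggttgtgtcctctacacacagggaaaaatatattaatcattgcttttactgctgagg

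The Col7a1 and Col5a3 windows are rich in G and C (56.4% and 62.8%), and the Col3a1 window is not (35.2%). Windows were found for 32 of the 40 genes, 34 windows in all. The GC box was in 22 of the 34 (64.7%), against 32.7% of 32851 windows of all genes. By gene it was in 21 of the 32, and in 9 of the 11 called genes that have windows. No comparison with windows of like G and C content was made. The CCAAT box was in 35.3% against 33.8% of all windows, and the TATA box in 11.8% against 12.4%. TGANTCA, the AP-1 motif, was in 2.94% against 6.75%. CCGGAA, the only form of the ETS factor motif searched, was in 0 of the 34 windows against 12.0% of all windows. These letters describe the windows only, and nothing about binding was measured.

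In the basement membrane class the widely made pair rose and the other 4 chains did not pass the test. Col4a1 and Col4a2, which together form the common type IV network, lie head to head on chromosome 8 (mm10, 11198423 to 11312826 on the minus strand and 11312805 to 11449287 on the plus strand), and their annotated 5′ ends overlap by 22 bases. Col4a1 had 12911 and 12031 normalised reads in Elf4fl/fl-Villin-Cre colon, against 6664 and 5195 in wild type. It rose by 1.08 ± 0.18 on the log2 scale (limma adjusted p = 0.0172). Col4a2 had 9203 and 8355, against 5446 and 4187 in wild type, and rose by 0.88 ± 0.18 (limma adjusted p = 0.0275). Every Elf4fl/fl-Villin-Cre value of the pair exceeded every wild-type value. With wild type replicate 2 left out, edgeR called neither (adjusted p = 0.0766 for Col4a1 and 0.119 for Col4a2). With Elf4fl/fl-Villin-Cre replicate 1 left out, it did not call Col4a2 (adjusted p = 0.0775). Col4a1 reads per Col4a2 read stood at 1.40 and 1.44 in Elf4fl/fl-Villin-Cre libraries and at 1.22 and 1.24 in wild-type libraries.

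Col4a5 and Col4a6, the pair on the X chromosome whose 5′ ends lie 1309 bases apart, stayed nearer to wild type. Col4a5 had 427 and 482 normalised reads in Elf4fl/fl-Villin-Cre colon, against 389 and 388 in wild type (log2 fold change 0.22 ± 0.14, limma adjusted p = 0.334). Its groups did not overlap, and limma with library totals called it (log2 fold change 0.54, adjusted p = 0.0401). Col4a6 had 182 and 218, against 261 and 247 in wild type (-0.35 ± 0.17, limma adjusted p = 0.228). Both of its Elf4fl/fl-Villin-Cre values lay below both wild-type values, unlike those of its neighbour. Reads of Col4a5 per Col4a6 read were thus 2.35 and 2.21 in Elf4fl/fl-Villin-Cre libraries against 1.49 and 1.57 in wild type. The same ratio of Col4a1 to Col4a5 was 30.3 and 24.9 against 17.1 and 13.4. Col4a3 and Col4a4, chains of kidney and lung membranes, were low. Col4a3 had 13.8 and 22.6 normalised reads in Elf4fl/fl-Villin-Cre colon, against 5.14 and 8.43 in wild type. Its groups did not overlap and its log2 fold change was the highest of the class, with a wide error (1.30 ± 0.51, limma adjusted p = 0.142). Col4a4 had at most 32.6 in any library and was not called (limma adjusted p = 0.583).

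The multiplexins, proteoglycan collagens of basement membrane zones, both rose. Col18a1 (mm10 chromosome 10, 77052178 to 77166548, minus strand), whose end piece is the vessel growth inhibitor endostatin, had 6411 and 5558 normalised reads in Elf4fl/fl-Villin-Cre colon, against 2573 and 2191 in wild type. Its means of 5984 ± 603 and 2382 ± 270 (SD, n = 2 each) differed 2.51-fold (log2 fold change 1.33 ± 0.15, limma adjusted p = 0.0097). Both Elf4fl/fl-Villin-Cre values were far above both wild-type values. Col15a1, made around vessels and muscle, had 755 and 769, against 545 and 483 in wild type, and rose by 0.57 ± 0.14 (limma adjusted p = 0.0415). It missed the edgeR threshold whichever library was left out (highest adjusted p = 0.132). Reads of Col18a1 per Col15a1 read were 8.49 and 7.23 in Elf4fl/fl-Villin-Cre libraries, against 4.72 and 4.54 in wild type.

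Among FACIT genes, whose products sit on the surface of fibrils, 1 of 7 passed. Col12a1 (mm10 chromosome 9, 79598991 to 79718831, minus strand), a collagen of tissues under load and of wounds, had 2872 and 3023 normalised reads in Elf4fl/fl-Villin-Cre colon, against 1349 and 1186 in wild type. The means of 2947 ± 107 and 1268 ± 115 (SD, n = 2 each) differed 2.32-fold (log2 fold change 1.22 ± 0.13, limma adjusted p = 0.00942). Col14a1, its close relative of resting fibrils, had 344 and 710 in Elf4fl/fl-Villin-Cre colon and 644 and 401 in wild type, so its groups overlapped (log2 fold change -0.04 ± 0.38, limma adjusted p = 0.952). Col12a1 reads per Col14a1 read were 8.36 and 4.26 in Elf4fl/fl-Villin-Cre libraries, against 2.09 and 2.96 in wild type. Col16a1 had 2433 and 2472, against 1870 and 1513, with no overlap (0.54 ± 0.15, limma adjusted p = 0.06, DESeq2 adjusted p = 0.0479). Col9a2, Col9a3, Col20a1 and Col22a1 had at most 143 normalised reads in any library and were not called, with log2 fold changes of -0.70, 0.55, 0.35 and -0.50.

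Type VI collagen forms beaded filaments around cells, from Col6a1, Col6a2 and a longer variable chain. Col6a1 had 8955 and 8123 normalised reads in Elf4fl/fl-Villin-Cre colon, against 6268 and 4901 in wild type (log2 fold change 0.62 ± 0.18, limma adjusted p = 0.0652). Col6a2 had 6955 and 5788, against 4414 and 3538 (0.68 ± 0.18, limma adjusted p = 0.0521). Both were higher in each Elf4fl/fl-Villin-Cre library without passing limma or edgeR. DESeq2 called Col6a1 (adjusted p = 0.0219) and Col6a2 (0.0123), as did limma with a replicate block, quantile scaling or library totals. For the variable chain there are 4 genes. Col6a3, the common one, had 3765 and 3351, against 3511 and 3036 (0.12 ± 0.15, limma adjusted p = 0.612), and its groups overlapped. Col6a4 had 437 and 421 in Elf4fl/fl-Villin-Cre colon, against 245 and 233 in wild type, and rose by 0.84 ± 0.14 (limma adjusted p = 0.0182). Leaving out Elf4fl/fl-Villin-Cre replicate 1 or wild type replicate 2 put it at edgeR adjusted p = 0.0571 or 0.0631. Col6a3 reads per Col6a1 read were 0.420 and 0.413 in Elf4fl/fl-Villin-Cre libraries, against 0.560 and 0.619 in wild type. Col6a5 and Col6a6, neighbours of Col6a4 on chromosome 9, were not called. Col6a5 spread widely within wild type, with 82.3 and 110 normalised reads in Elf4fl/fl-Villin-Cre colon and 171 and 42.1 in wild type. Col6a6 did not exceed 5.27 in any library.

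Of the network class, which forms hexagonal lattices, Col8a1 rose. This chain, made by vessel walls and injured stroma, had 467 and 416 normalised reads in Elf4fl/fl-Villin-Cre colon, against 269 and 190 in wild type (log2 fold change 0.96 ± 0.21, limma adjusted p = 0.0315). Leaving out Elf4fl/fl-Villin-Cre replicate 1 or wild type replicate 2 put Col8a1 at edgeR adjusted p = 0.0739 or 0.0883. Its partner Col8a2 had 66.8 and 146 against 60.7 and 79.0, with overlapping groups (0.51 ± 0.40, limma adjusted p = 0.432). Of the 4 transmembrane collagens 0 passed in limma or edgeR and 0 had an unadjusted limma p under 0.05. Col23a1 had 450 and 331 in Elf4fl/fl-Villin-Cre colon against 331 and 277 in wild type, and Col13a1 had 86.3 and 81.1 against 82.3 and 69.5. Col25a1 had at most 23.2 in any library. Col26a1 (16.3 and 14.2 against 10.3 and 2.11) and Col28a1, a collagen of nerves and glia (60.3 and 105 against 84.4 and 65.3), were not called. Over 27 collagens that did not pass, the log2 fold change was positive in 20 and negative in 7, and 15 of the 40 genes averaged under 100 reads, where only large differences could be detected.

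The makeup of collagen RNA by class is given without a test. Reads were divided by exon length so that genes could be added, and each class was taken as a share of the total. The fibrillar share was 42.1% and 44.6% in Elf4fl/fl-Villin-Cre libraries and 45.3% and 44.3% in wild-type libraries, so the groups overlapped. The basement membrane share was 22.2% and 21.4%, against 18.9% and 18.9% in wild type. The multiplexin share was 7.14% and 6.55%, against 4.73% and 5.16%. The beaded filament share was lower, at 22.5% and 20.7%, against 24.1% and 24.3% in wild type. The anchoring share was 0.257% and 0.211%, against 0.0627% and 0.075%. FACIT genes stood at 4.46% and 5.18% against 5.41% and 5.37%.

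**Figure D3:**
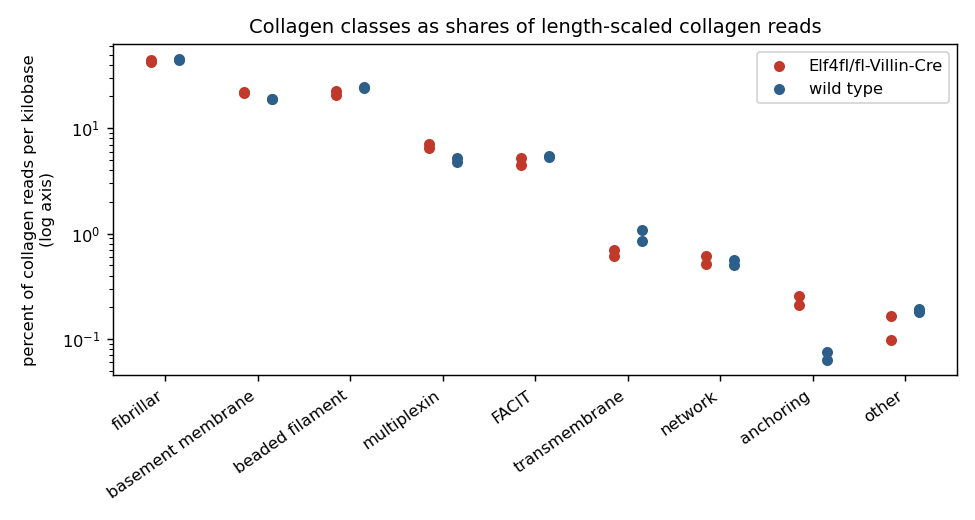
Share of length-scaled collagen reads taken by each class (y axis, percent, log scale), with 2 Elf4fl/fl-Villin-Cre libraries left of 2 wild-type libraries. Basement membrane, multiplexin and anchoring shares are higher in both Elf4fl/fl-Villin-Cre libraries, at 22.2% and 21.4% against 18.9% for basement membrane. Beaded filament, FACIT, transmembrane and other shares are lower in both, and fibrillar and network shares overlap.

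Set against Col1a1 within each library, some collagens stood further from wild type than type I did. Most genes in this ratio were chosen because they passed the test, and Col1a1 did not pass. Higher ratios therefore largely follow from that choice and are no separate support. Col7a1 had 0.0713 and 0.0504 reads per Col1a1 read in Elf4fl/fl-Villin-Cre libraries, against 0.0122 and 0.0157 in wild type, a 4.37-fold difference of means. The same ratio of Col5a3 was 0.355 and 0.298, against 0.0976 and 0.105, and differed 3.22-fold. It differed 1.93-fold for Col18a1, 1.77-fold for Col12a1 and 1.62-fold for Col4a1, in each case without overlap. For Col3a1 it was 5.93 and 5.23 against 4.33 and 4.60, a 1.25-fold difference. Col14a1, Col15a1 and Col6a3 overlapped between groups in this ratio. Relative to Pdgfra, a receptor that marks fibroblasts, Col3a1 stood at 6.84 and 7.90 reads in Elf4fl/fl-Villin-Cre libraries and at 8.38 and 6.72 in wild type. Col5a3 stood at 0.410 and 0.450 against 0.189 and 0.154, and Col7a1 at 0.0822 and 0.0761 against 0.0236 and 0.0229. Relative to the endothelial marker Pecam1, Col4a1 stood at 9.15 and 9.39 reads against 7.11 and 7.19. Col18a1 stood at 4.55 and 4.34 against 2.75 and 3.03. Ratios to pericyte markers were not taken. The summed level of those markers differed 2.15-fold between group means, against 1.52-fold for endothelial markers. Col4a1 itself differed 2.10-fold and Col18a1 2.51-fold, so Col4a1 rose no more than the pericyte sum did.

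**Figure D4:**
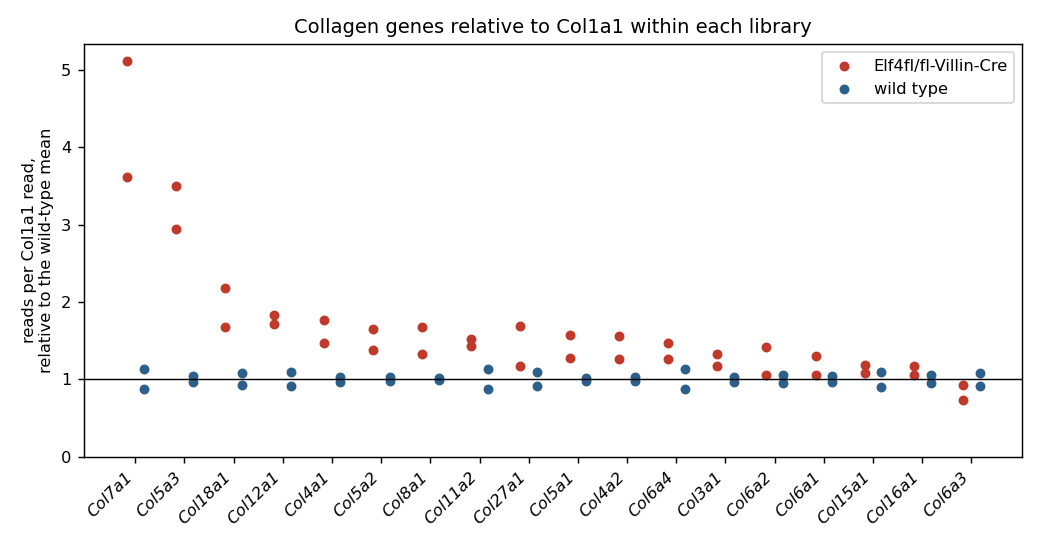
Reads of each collagen gene per Col1a1 read in the same library, divided by the wild-type mean (y axis, linear), with 2 Elf4fl/fl-Villin-Cre libraries left of 2 wild-type libraries. The mean is 4.37 for Col7a1 and 3.22 for Col5a3 in Elf4fl/fl-Villin-Cre colon, while Col15a1 and Col6a3 overlap with wild type around 1.

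Counts for the pathway lists here and below stand beside 6.86% of all tested genes that rose and 8.6% that fell. Of 22 genes that fold and modify collagen chains in the endoplasmic reticulum, 4 rose and 2 fell. The share that fell was near that of all genes, and the median log2 fold change was 0.44. Plod2, which hydroxylates the lysines later used for crosslinks, had 1457 and 1278 normalised reads in Elf4fl/fl-Villin-Cre colon, against 595 and 605 in wild type (log2 fold change 1.18 ± 0.13, limma adjusted p = 0.00942). It passed edgeR in each fit without 1 library. Tmem38b, an ion channel of the reticulum, rose by 0.88 and P3h3, of the prolyl 3-hydroxylase family, by 0.71 (limma adjusted p = 0.0148 and 0.0328). The other gene that rose, named after its values were seen, was P3h1. P4hb, the disulfide isomerase that is also a subunit of prolyl 4-hydroxylase, fell by 0.71, and Creb3l1, a transcription factor that in mouse bone activates Col1a1, fell by 0.80 (limma adjusted p = 0.0374 and 0.0422). Epithelium makes both as well, and the part of its lower markers in this was not tested. In edgeR without wild type replicate 2, Tmem38b stood at adjusted p = 0.0565, P3h3 at 0.106, P4hb at 0.0816 and Creb3l1 at 0.0855. Without Elf4fl/fl-Villin-Cre replicate 1, P4hb stood at 0.148 and Creb3l1 at 0.100, and without wild type replicate 1 at 0.0872 and 0.0798. P3h3 was at 0.0880 with Elf4fl/fl-Villin-Cre replicate 2 left out. P4ha2 and Fkbp10 passed edgeR but not limma.

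Of 16 genes with a row that trim procollagen or crosslink the fibril, 9 rose and 2 fell, with a median log2 fold change of 0.74. Lox, the lysyl oxidase that starts crosslinking, had 1047 and 960 normalised reads in Elf4fl/fl-Villin-Cre colon, against 263 and 228 in wild type (log2 fold change 2.03 ± 0.15, limma adjusted p = 0.00636). Per Col1a1 read there were 0.195 and 0.160 Lox reads in Elf4fl/fl-Villin-Cre libraries, against 0.0519 and 0.0616 in wild type. Loxl2, which also acts on type IV collagen, rose by 1.34, and Adamts14, a procollagen N-proteinase, by 2.13 (limma adjusted p = 0.00767 and 0.00973). Pxdn, the peroxidase that forms sulfilimine bonds in type IV collagen, had 1577 and 1503, against 912 and 848, and rose by 0.81 (limma adjusted p = 0.015). Leaving out wild type replicate 2 put it at edgeR adjusted p = 0.0556. The 2 that fell were the meprins of the epithelial brush border, which can cleave procollagen. Mep1b fell by 0.94 (limma adjusted p = 0.0142) and Mep1a, named after its values were seen, by 2.99 (limma adjusted p = 0.0196). Without wild type replicate 2 Mep1a stood at an edgeR adjusted p of 0.0616. Its log2 fold change was -2.25 with Elf4fl/fl-Villin-Cre replicate 1 left out and -3.72 with Elf4fl/fl-Villin-Cre replicate 2 left out.

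Of 11 collagen receptors and uptake genes, 4 rose and 1 fell, with a median log2 fold change of 0.73. The share that fell was near that of all tested genes. Itga2, the alpha chain of a collagen-binding integrin, had 653 and 685 normalised reads in Elf4fl/fl-Villin-Cre colon, against 325 and 281 in wild type (log2 fold change 1.14 ± 0.15, limma adjusted p = 0.0108). Itga1, of the other main collagen integrin, rose by 0.77, and the endocytic receptor Mrc1 of macrophages by 0.91 (limma adjusted p = 0.0198 and 0.0127). The discoidin domain receptors went opposite ways. Ddr2, of stromal cells, had 3856 and 3571 against 2392 and 2081 and rose by 0.73, while Ddr1, of epithelium, had 757 and 978 against 1640 and 1761 and fell by 0.98 (limma adjusted p = 0.023 and 0.0173). In edgeR without wild type replicate 2, Itga1 stood at adjusted p = 0.0819, Ddr2 at 0.0996 and Ddr1 at 0.0510, and Ddr2 was at 0.0848 with Elf4fl/fl-Villin-Cre replicate 1 left out. Ddr2 also counts among the fibroblast markers above.

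Of 15 basement membrane partners, 7 rose and 3 fell, with a median log2 fold change of 0.60. Lamb1 and Lamc1, laminin chains found in most basement membranes, rose by 1.35 and 1.05, Lama1 by 1.66 and the linker nidogen gene Nid1 by 0.82 (limma adjusted p = 0.0089, 0.0111, 0.0174 and 0.0144). Lamb3, of the epithelial laminin that works with hemidesmosomes, had 1459 and 2444 normalised reads in Elf4fl/fl-Villin-Cre colon, against 5127 and 6429 in wild type, and fell by 1.60 (limma adjusted p = 0.017). The other 2 that fell, named after their values were seen, were Lama3, also of that laminin, and Agrn. In edgeR without wild type replicate 2, Lamc1 stood at adjusted p = 0.0501, Nid1 at 0.0611, Lamb3 at 0.0570, Lama3 at 0.0680 and Agrn at 0.0589, and Agrn was at 0.0762 with Elf4fl/fl-Villin-Cre replicate 1 left out. Of 11 collagen-cleaving proteases and inhibitors 7 rose and 0 fell, with a median log2 fold change of 0.86. Mmp14, the membrane-bound collagenase, had 4219 and 4013 normalised reads against 2197 and 1755 in wild type and rose by 1.07 (limma adjusted p = 0.0136). Mmp8, Mmp9, Mmp13 and the inhibitor Timp1 rose by 4.67, 3.47, 5.23 and 1.64 (limma adjusted p = 0.0089, 0.0141, 0.00737 and 0.0176). In edgeR without wild type replicate 2, Mmp14 stood at adjusted p = 0.0521 and Mmp9 at 0.0604. On the log2 scale Mmp9 was at 4.21 and Mmp13 at 5.86 with Elf4fl/fl-Villin-Cre replicate 1 left out. They were at 2.72 and 4.60 with Elf4fl/fl-Villin-Cre replicate 2 left out. Leukocyte markers, 5 of 10 of which rose, summed to 19921 and 13516 normalised reads in Elf4fl/fl-Villin-Cre colon and 10430 and 7013 in wild type, and their part in the protease values was not tested.

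**Figure D5:**
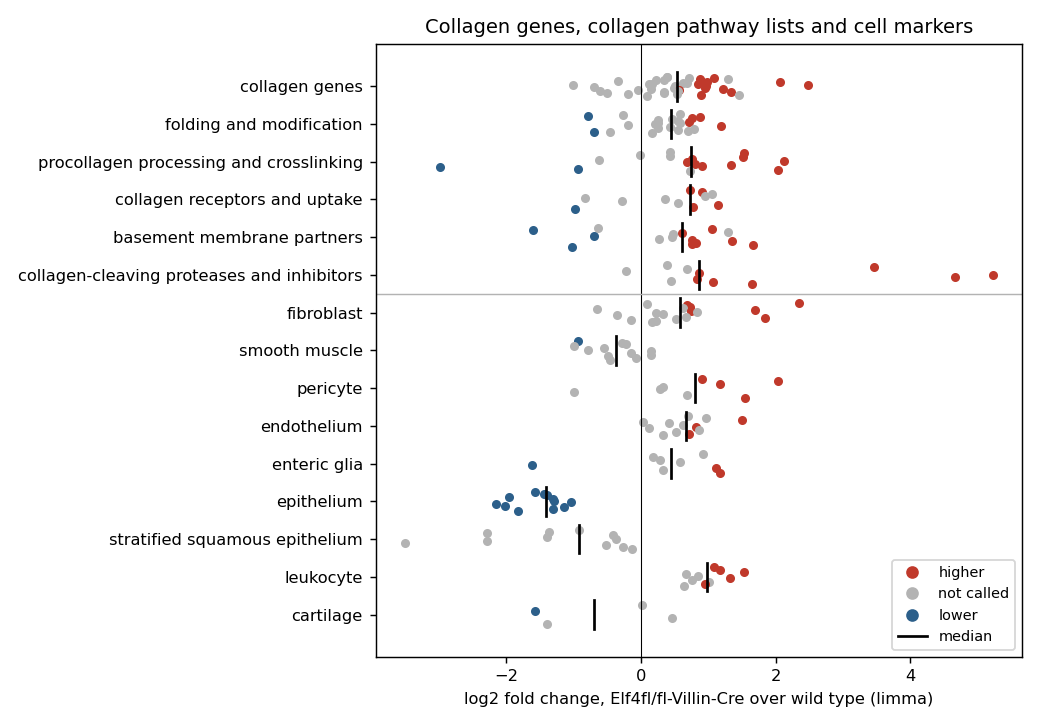
Log2 fold change of each gene (x axis, Elf4fl/fl-Villin-Cre over wild type, limma) in the collagen genes, the collagen pathway lists above the line and the cell marker lists beneath it, with medians as black bars. Genes that passed the test as higher are red and as lower blue; the collagen median is 0.54, all 12 epithelial markers are lower and 0 of 12 smooth muscle markers are higher.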

How the data were processed

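RNA of 2 Elf4fl/fl-Villin-Cre and 2 wild-type distal colon samples was sequenced, and groups came from the genotype labels. The deposited table holds a normalised signal per gene made by the authors. Every value was a whole multiple of the smallest value above 0 in its library (tolerance 0.01 reads), which gave back whole reads for use in count tests. Per the submitters' processing notes the genome was mm10. Which aligner, counter, strand setting and scaling tool were used is not given in the sources used here. GENCODE mouse release 21 of that build gave symbols for 22376 of 22422 identifiers (99.8%) and exon lengths.

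The test was limma 3.58.1 (R 4.3.3) with a variance trend on log2(value + 1), over genes with a mean of at least 1, adjusted by Benjamini-Hochberg over all of them. Such fold changes understate the change of low genes. Alternatives were edgeR 4.0.16 and DESeq2 1.42.0 on recovered reads, other pseudocounts, filters and scalings, a replicate block and each library left out. The scripts were tested on simulated data, in which limma at this sample size missed real changes that edgeR called, so a gene that did not pass limma is not shown to be unchanged. Named with values were called members and up to 3 of the largest mean per class, and up to 5 called genes of each other list by smallest p. Members and lists were chosen with earlier results of these data known. Reads of near-identical or overlapping genes may have been split by the counting; Col4a1 and Col4a2 overlap each other, and 6 further genes with a row overlap a called member, with at most 153 reads in any library. Promoter windows came from RefSeq (GRCm38.p6).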

Additional observations from a re-analysis of the deposited data

How the results depend on the processing

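All 13 called collagens kept a positive sign in every alternative run, and their log2 fold changes moved by at most 0.25 when 1 library was left out of limma. With library totals 20 collagens rose, and 5192 of all genes were called (4030 higher, 1162 lower). Quantile scaling called 1986 genes (984 higher, 1002 lower) and 15 collagens, and median scaling 11 collagens with 1282 genes higher and 2301 lower. Among members outside the 13, Col3a1, Col6a1, Col6a2 and Col16a1 passed in DESeq2, with the replicate block, with quantile scaling and with library totals. Limma without its variance trend called 0 genes and 0 collagens. Over the fits that left out 1 library, limma and edgeR together, calls ran from 0 to 3754 for all genes, from 0 to 1563 higher, from 0 to 2191 lower and from 0 to 12 for collagens. The replicate block called 4511 genes (2066 higher, 2445 lower) and 17 collagens; same-numbered libraries deviated together with a correlation of 0.104 over only 2 pairs, so the numbers were not taken as pairs. The sign of some uncalled members turned. Col6a5 stood at -0.18 in edgeR, -0.20 in DESeq2 and -0.057 under quantile scaling, which also put Col13a1 at -0.075 and Col28a1 at -0.12. Library totals put Col14a1 at 0.27 and Col25a1 at 0.11. With 1 library left out, log2 fold changes ran from -0.011 to 0.23 for Col6a3, -0.86 to 1.15 for Col6a5, -0.10 to 1.07 for Col8a2, -0.64 to 0.48 for Col14a1 and -1.53 to 0.40 for Col17a1. They ran from -0.0037 to 0.67 for Col20a1, -1.28 to 0.085 for Col22a1, -0.53 to 0.091 for Col25a1 and -0.35 to 0.49 for Col28a1. The cause was not tested.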
